A study of Mus musculus with 6 samples.

Results

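The 9 genes described here are known from the testis and the germ line without belonging to the piRNA pathway or to the meiotic chromosome axis. They are *Dazl*, *Tex101*, *Tex19.1*, *Slc25a31*, *Dpep3*, *Stk31*, *Rpl10l*, *Brdt* and *Aire*, and they were found by symbol among the 23420 gene symbols of the count files, where all 9 of 9 had counts. RNA was sequenced from E14 cells, a mouse embryonic stem cell (ESC) line, in 3 WT libraries and 3 libraries of *Patz1* -/- cells (*Patz1* KO). All cells were grown with LIF and inhibitors of MEK (PD0325901) and of GSK3 (CHIR99021), so both genotypes share this treatment. The KO was made in WT E14TG2a cells with Cas9 and an sgRNA against *Patz1*, and the methods describe the selection of single clones, so an effect of *Patz1* loss and an effect of a clone cannot be told apart. PATZ1 belongs to the zinc finger transcription factors with a POZ domain and has been linked to chromatin boundaries, and the comparison asks whether these genes changed upon its loss and whether they shared a direction.

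Most genes of the germ line are kept low in somatic cells and in cultured ESCs. Well-known layers of this repression are methylation of CpG-rich promoters and the action of a variant Polycomb complex (PRC1.6) that reaches DNA through MGA and MAX at E-box sequences (CACGTG) and through E2F6 at its own sites (TCCCGC). ESCs nevertheless carry transcripts of some of them, since the pluripotent state and early germ cells share part of their expression programme. The roles of the 9 genes differ. DAZL binds RNA and is needed for germ cell development. TEX19.1 is made in pluripotent cells, placenta and germ cells and restrains retrotransposons. STK31 is a kinase-like protein with a Tudor domain, BRDT is the testis member of the BET bromodomain family, TEX101 and DPEP3 are glycolipid-anchored proteins of the germ cell surface, SLC25A31 is the germ cell ADP/ATP carrier, and RPL10L is an autosomal copy of the ribosomal protein RPL10. AIRE is best known from medullary thymic epithelium, where it drives tissue-restricted genes, and is also made in testis.

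The upstream sequences are shown first, since they are what these genes could share beyond the list. They come from RefSeq on GRCm38.p6, in windows of 250 bases before to 50 after each annotated start. All 9 genes had a window and *Stk31* had 2 overlapping ones. The 10 windows held 12 to 29 CG dinucleotides, against a median of 7 over the 32851 windows of the table. CACGTG (its own reverse complement) was present for 3 of 9 genes, *Stk31*, *Brdt* and *Slc25a31*, and in 7.15% of all windows. The 60 bases around each match are given 5′ to 3′ on the strand of the gene, which is plus for all 3, with the match in capitals.
*Stk31*, chr6:49395457-49395516: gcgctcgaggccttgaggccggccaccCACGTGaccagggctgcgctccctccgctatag
*Brdt*, chr5:107331089-107331148: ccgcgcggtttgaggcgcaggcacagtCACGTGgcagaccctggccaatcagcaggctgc
*Slc25a31*, chr3:40708751-40708810: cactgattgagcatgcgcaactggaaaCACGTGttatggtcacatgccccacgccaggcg

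TCCCGC, searched on both strands, was present for *Tex19.1*, *Rpl10l* and *Slc25a31*, and in 19.98% of all windows. It is shown for the first pair, in capitals, and for *Tex19.1* it lies on the opposite strand. A G-rich run of the kind that PATZ1 and MAZ bind, GGGGNGGGG, was searched on both strands and was found for *Slc25a31* alone, against 22.4% of all windows. Such matches describe letters in a window and not occupied sites.
*Tex19.1*, chr11:121146083-121146142, plus strand: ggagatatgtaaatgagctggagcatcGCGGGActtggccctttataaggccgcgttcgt
*Rpl10l*, chr12:66284412-66284471, minus strand: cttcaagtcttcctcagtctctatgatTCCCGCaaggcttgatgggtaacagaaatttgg

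The targeted gene was examined before the list. In the order of their replicate numbers, which is kept below, the WT libraries held 1838, 1983 and 1843 normalized counts of *Patz1* and the KO libraries 853, 862 and 862. The fitted log2 fold change of KO over WT, called log2 ratio below, was -1.14 (SE 0.10), and 45.5% of the WT mean was left in KO. *Patz1* lies on chromosome 11, most of whose genes were lower in KO, as described below for *Tex19.1*. By western blot, the study reports loss of the PATZ1 protein in its *Patz1* KO lines. Here and below, each count was divided by the size factor of its library. Libraries held 11040756 to 47721070 counts, and replicate 3 of both genotypes was the shallow pair, with 12.5% to 14.4% of counts on the ribosomal precursor *Rn45s* against at most 3.03% elsewhere. Detection was set to begin above 3 counts, which is 1.69 to 8.21 normalized counts depending on the library and covers counting error only. ESC markers were high in every library (8 genes with a summed 134269 to 138774 normalized counts in WT and 144553 to 150016 in KO, with 0 of 8 past the adjusted threshold in DESeq2, edgeR or limma-voom, 1 at an unadjusted p under 0.05, and 3 past it with the replicate block), and each of 6 spermatid markers (*Prm1*, *Prm2*, *Tnp1*, *Tnp2*, *Acr* and *Acrv1*) had at most 3 counts in every library. The study calls the ESC libraries biological replicates, a term its methods explain only for differentiation experiments, and the labels name no separate cultures, so p-values measure the spread between these libraries.

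The 9 genes did not share a direction. In the Wald test of DESeq2, with an adjusted p-value threshold of 0.05 over the 15309 genes tested, 5 of the 9 passed: *Aire* and *Stk31* rose in KO, and *Dazl*, *Tex19.1* and *Dpep3* fell. The backgrounds were 7.49% of all tested genes in either direction, 2.7% higher and 4.78% lower. The genes were chosen with these results known, so the share of the list that passed is a description. The log2 ratios ran from -3.76 to 2.05, 4 above 0 and 5 below, with a median of -0.12 against 0.0087 over all genes tested. For 6 of the 9 genes WT and KO libraries were fully separate, 3 with every KO library above every WT library and 3 below, against 25.6% of all tested genes (11.8% above and 13.8% below). The count of 5 depended on single libraries: it was 2 without KO replicate 1, 3 without WT replicate 1, WT replicate 2 or without replicate 2 of KO, 4 without KO replicate 3 and in edgeR, and 5 without WT replicate 3 or without replicate 3 of both genotypes. In such bulk libraries, fewer cells with a transcript and less transcript per cell cannot be told apart.

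**Figure D1:**
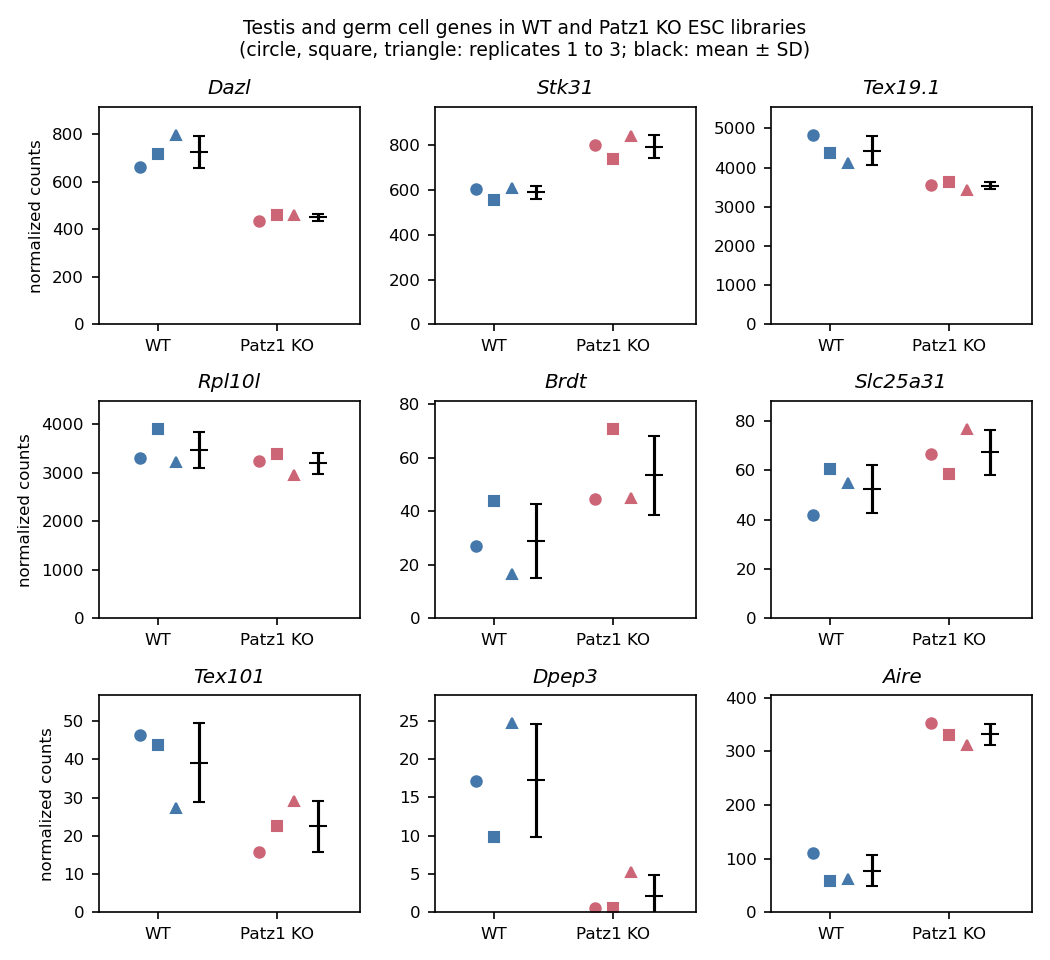
Normalized counts (y axis, from 0) of the 9 genes in the WT (blue) and *Patz1* KO (red) libraries, with circles, squares and triangles for replicates 1 to 3 and the mean ± SD in black, cut off at 0 for *Dpep3*. The KO libraries lie above all WT libraries for *Stk31*, *Brdt* and *Aire* and below them for *Dazl*, *Tex19.1* and *Dpep3*, and the genotypes overlap for *Rpl10l*, *Slc25a31* and *Tex101*.

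**Figure D2:**
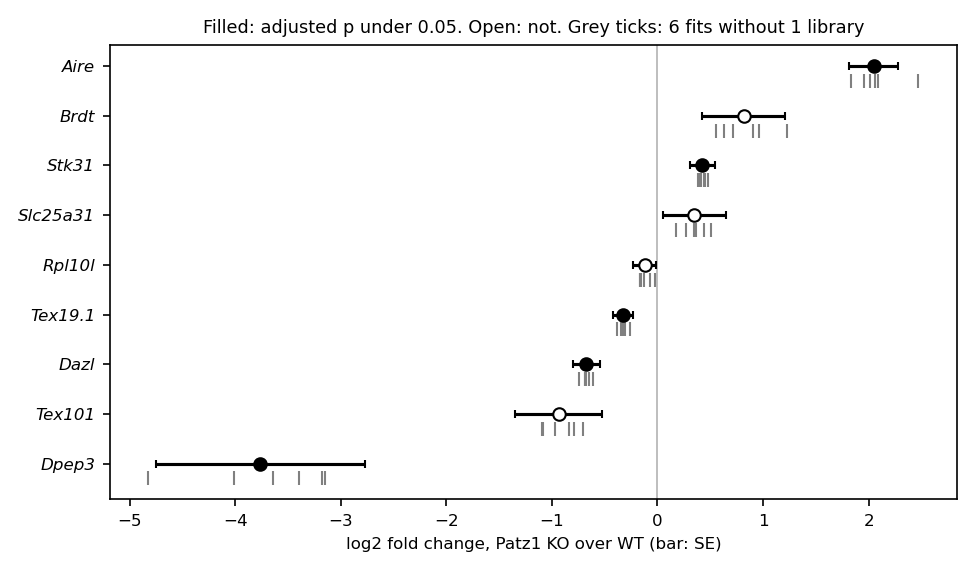
Log2 fold change of *Patz1* KO over WT (x axis) with its SE for each of the 9 genes, filled where the adjusted p-value was under 0.05 and open otherwise, with grey ticks for the 6 fits that each left out 1 library. The 9 estimates spread over both sides of 0, and no tick crosses 0.

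*Aire* gave the rise furthest from 0 of the list. The gene lies on chromosome 10 from 78030022 to 78043610 (minus strand, GRCm38) and gave 112, 58.6 and 63.0 normalized counts in the WT libraries and 352, 331 and 312 in the KO libraries. All KO libraries stood well above all WT libraries, and WT replicate 1 was the highest of the WT libraries. The WT mean was 77.7 ± 29.4 and the KO mean 332 ± 20.2 (SD, n = 3 each), a 4.27-fold ratio, with a log2 ratio of 2.05 (SE 0.23, adjusted p 7.11e-16, DESeq2). Within pairs of equal replicate number, KO over WT was 1.66, 2.50 and 2.31 on the log2 scale. *Aire* passed the threshold under each of the 15 alternatives, including the 6 fits without 1 library (log2 ratio 1.83 to 2.47).

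The 250 bases before the start of *Aire* are printed because it moved most among the genes with more than a few counts. They lie at chr10:78043611-78043860 on the minus strand of GRCm38.p6. The capitals mark TATAAA, a sequence chosen after the window had been seen, which was present on either strand for *Aire*, *Stk31* and *Tex19.1* and in 13.6% of all windows.
*Aire*: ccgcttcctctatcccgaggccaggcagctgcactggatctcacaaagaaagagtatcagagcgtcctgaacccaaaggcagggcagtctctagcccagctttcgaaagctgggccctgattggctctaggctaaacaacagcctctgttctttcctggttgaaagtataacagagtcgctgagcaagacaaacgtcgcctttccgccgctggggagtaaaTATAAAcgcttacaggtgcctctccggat

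*Aire* shares its 5′ end with a neighbour on the opposite strand. *Dnmt3l*, the cofactor of the de novo DNA methyltransferases, runs from 78041947 to 78063622 on the plus strand. The 2 genes overlap over 1664 bases, and 67 of the 3825 exon bases of *Aire* also lie in an exon of *Dnmt3l*. *Dnmt3l* had 6514, 4388 and 5317 normalized counts in WT and 8471, 6397 and 8557 in KO, and KO replicate 2 lay within the WT range. The log2 ratio of *Dnmt3l* was 0.53 (SE 0.15, adjusted p 0.00953, DESeq2), and it missed the threshold in 6 of 15 alternatives, edgeR and limma-voom among them (adjusted p up to 0.568). The use of strand in the counting was not given in the sources used here, so reads of the shared exon bases cannot be told apart. The other neighbours did not pass. *Pfkl*, a glycolytic enzyme gene downstream of *Aire*, had a log2 ratio of 0.41 (SE 0.15, adjusted p 0.0753), and *Icosl* and *1810043G02Rik* had 0.14 and -0.28 (adjusted p 0.832 and 0.513).

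Genes tied to *Aire* in the thymus were compared in the same fit. Of 14 genes of AIRE partners and thymic epithelium, 8 had an adjusted p-value and 0 passed in DESeq2, edgeR or limma-voom, with 1 at an unadjusted p under 0.05 and a median log2 ratio of -0.13. With the replicate block 1 passed, *Prkdc*. The 7 thymic epithelium markers among them summed to 244 to 326 normalized counts in WT and 237 to 271 in KO, mostly from *Cd80* (means of 151 and 124), which other cells make too, and *Psmb11* (103 and 96.5), a marker of cortical and not of medullary epithelium. The others stayed low, and 5 of the 7 were under a mean of 50 in both genotypes.

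*Stk31* also rose. It lies on chromosome 6 from 49395604 to 49469501 (plus strand) and had 602, 555 and 608 normalized counts in WT and 799, 738 and 838 in KO. The genotypes did not overlap, and the 3 pairs of equal replicate number gave 0.41, 0.41 and 0.46 on the log2 scale. The means were 588 ± 28.9 and 792 ± 50.4 (SD, n = 3 each), a log2 ratio of 0.43 (SE 0.12, adjusted p 0.00821, DESeq2). *Stk31* missed the threshold without WT replicate 2 (adjusted p 0.142) and without KO replicate 1 (0.117). The 4 nearest counted genes, *Ccdc126*, *Fam221a*, *Npy* and *Mpp6*, had log2 ratios of -0.57 to 0.17 and did not pass.

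*Dazl* fell in every KO library. It lies on chromosome 17 from 50279395 to 50293636 (minus strand) and had 661, 715 and 794 normalized counts in WT and 434, 458 and 460 in KO. The WT values spread more than the KO values, and the lowest WT library was still above the highest KO library. KO held 62.3% of the WT mean (451 ± 14.5 against 723 ± 67.2, SD, n = 3 each), a log2 ratio of -0.67 (SE 0.13, adjusted p 8.86e-06, DESeq2). *Dazl* passed in all 15 alternatives, with log2 ratios from -0.74 to -0.61. *Boll*, the other autosomal gene of the DAZ family, was less abundant, with 17.4 ± 1.48 and 23.8 ± 8.67 normalized counts (log2 ratio 0.42, adjusted p 0.792). Around *Dazl*, *Kif6*, *Rftn1*, *Plcl2* and *Tbc1d5* had log2 ratios of -0.32 to 0.39, and none of these 4 passed.

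*Tex19.1* was the most abundant of the 5 genes that passed, and it lies on a chromosome whose genes were mostly lower in KO. It lies near the end of chromosome 11 (121146143 to 121148319, plus strand) and had 4823, 4368 and 4110 normalized counts in WT and 3546, 3624 and 3438 in KO. The genotypes did not overlap, and the KO mean was 79.7% of that of WT (3536 ± 93.3 against 4434 ± 361, SD, n = 3 each). The log2 ratio was -0.33 (SE 0.10, adjusted p 0.0152, DESeq2). Among 959 genes of chromosome 11 with a mean of at least 50 normalized counts, 90.7% were lower in KO and the median log2 ratio was -0.26, against 0.03 over 10067 genes of the other autosomes. As low a value as that of *Tex19.1* was reached by 34.2% of the former and 7.45% of the latter. With chromosome 11 centred in each library, the log2 ratio of *Tex19.1* was -0.03 (adjusted p 0.946). It missed the threshold in edgeR (adjusted p 0.0608) and in 5 of the 6 fits that left out 1 library, all but that without WT replicate 3 (adjusted p 0.0686 to 0.176).

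**Figure D3:**
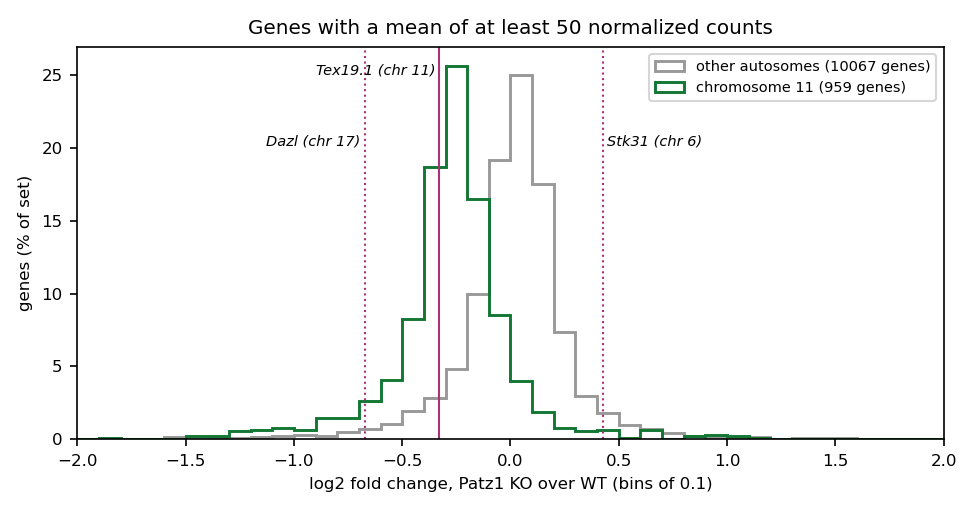
Distribution of the log2 ratio of *Patz1* KO over WT (x axis, bins of 0.1) as the percentage of genes (y axis) on chromosome 11 (green) and on the other autosomes (grey), with vertical lines for *Tex19.1* on chromosome 11 and for *Dazl* and *Stk31* on other chromosomes. The green curve is shifted to the left of the grey one (medians -0.26 and 0.03), and the line of *Tex19.1* at -0.33 falls beside its peak.

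The nearest counted gene upstream of *Tex19.1* is its paralog *Tex19.2* (121116215 to 121118677, minus strand), and it fell too. *Tex19.2* had 64.1, 79.1 and 82.1 normalized counts in WT and 37.2, 40.9 and 23.8 in KO, with no overlap (log2 ratio -1.05, SE 0.31, adjusted p 0.0157, DESeq2). With chromosome 11 centred its log2 ratio was -0.76 (adjusted p 0.184), and it missed the threshold in 7 of 15 alternatives. The paralogs share sequence: 2.95% of the 50-base windows of the longest *Tex19.1* transcript occur unchanged in *Tex19.2* and 9.32% with at most 2 mismatches. How reads of these windows were assigned was not given in the sources used here, so the value of the rarer *Tex19.2* is uncertain. *Ogfod3*, 2 genes downstream of *Tex19.1*, had a log2 ratio of -0.06 (adjusted p 0.945).

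*Dpep3* had the fold change furthest from 0 and the fewest counts. It lies on chromosome 8 from 105973513 to 105979429 (minus strand) and had 30, 14 and 9 raw counts in WT and 1, 1 and 2 in KO, or 17.2, 9.89 and 24.6 against 0.564, 0.593 and 5.29 normalized counts. Every KO library was at or under the floor of 3 counts, while every WT library was above it. The summed raw counts were 53 in WT against 4 in KO. After scaling by the summed size factors of each genotype, WT was 14.4-fold higher, with an exact 95% interval from 5.30 to 54.8. This interval covers counting error and not the spread between libraries. By the means of normalized counts, KO held 12.5% of WT, and the pairs gave -4.93, -4.06 and -2.22 on the log2 scale. The fitted log2 ratio was -3.76 (SE 0.99, adjusted p 0.00381, DESeq2), and it ran from -4.82 to -3.15 in the fits without 1 library. *Dpep3* missed the threshold without WT replicate 1 (adjusted p 0.0628), KO replicate 1 (0.105) or KO replicate 2 (0.0998). A lincRNA annotated on the opposite strand, *Gm45752*, overlaps 119 of the 1698 exon bases of *Dpep3*.

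The other dipeptidase genes had lower WT means than *Dpep3* and no adjusted p-value. *Dpep2*, upstream on the same strand, had a mean of 3.92 normalized counts in WT and 5.45 in KO, and *Dpep1* had 2.10 in WT and no count in KO. *Slc12a4*, the nearest counted gene downstream of *Dpep3*, had a log2 ratio of 0.02 (adjusted p 0.969), and *Ddx28* on the other side had 0.03 (0.942). *Lcat*, the next one downstream, had 0.91 (SE 0.59, adjusted p 0.482, DESeq2).

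**Figure D4:**
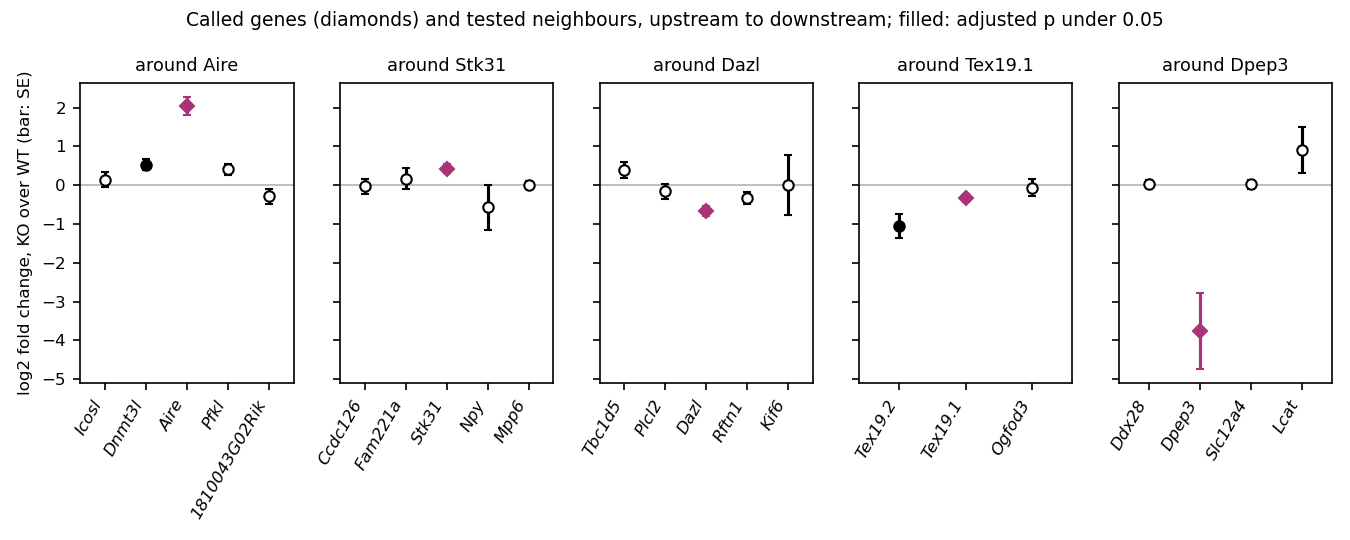
Log2 fold change of *Patz1* KO over WT with its SE (y axis) for *Aire*, *Stk31*, *Dazl*, *Tex19.1* and *Dpep3* (diamonds) and for the tested genes among the 2 nearest counted genes on each side (circles), placed in order from upstream to downstream and not to scale of distance. Filled symbols passed an adjusted p-value of 0.05, which among these neighbours holds for *Dnmt3l* and *Tex19.2*.

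Of all 36 neighbours of the 9 genes, 27 had an adjusted p-value and 3 passed, against 7.49% of all tested genes: *Dnmt3l* beside *Aire*, *Tex19.2* beside *Tex19.1*, and *Wdr20b*, which lies 1059 kb from *Rpl10l*. *Wdr20b* averaged 43.5 ± 10.5 normalized counts over the WT libraries and 18.4 ± 5.90 over the KO libraries (log2 ratio -1.21, adjusted p 0.0491, DESeq2) and missed the threshold in 9 of 15 alternatives.

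The other 4 genes did not pass, and for them the values are given without a direction. *Tex101* (chromosome 7, 24668007 to 24676675, minus strand) had 46.3, 43.8 and 27.4 normalized counts in WT and 15.8, 22.5 and 29.1 in KO. KO replicate 3 lay above WT replicate 3, and the pairs gave -1.55, -0.96 and 0.09 on the log2 scale. The log2 ratio was -0.94 (SE 0.41, p 0.0238, adjusted p 0.180, DESeq2), or -1.09 to -0.70 without 1 library.

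*Brdt* (chromosome 5, 107331159 to 107387058, plus strand) had 26.9, 43.8 and 16.4 normalized counts in WT and 44.6, 70.6 and 44.9 in KO. Every KO library was above every WT library, the closest values being 44.6 and 43.8. The log2 ratio was 0.82 (SE 0.40, p 0.0393, adjusted p 0.250, DESeq2) and ran from 0.55 to 1.23 in the fits without 1 library. *Brd2* and *Brd3*, BET genes of somatic cells, were far more abundant and had log2 ratios of -0.11 and 0.17 (adjusted p 0.610 and 0.679). *Brdt* shares no 50-base window with them at up to 2 mismatches.

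*Slc25a31* (chromosome 3, 40708855 to 40726096, plus strand) had 41.7, 60.7 and 54.8 normalized counts in WT and 66.6, 58.7 and 76.6 in KO. The genotypes overlapped, with KO replicate 2 below WT replicate 2, and the log2 ratio was 0.35 (SE 0.30, adjusted p 0.663, DESeq2), with 0.18 to 0.51 in the fits without 1 library. The ADP/ATP carriers of somatic cells, *Slc25a4* and *Slc25a5*, had log2 ratios of 0.31 (adjusted p 0.0939) and 0.07 (0.830). Of the 3 genes with CACGTG before their start, *Stk31* passed and *Brdt* and *Slc25a31* did not.

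In the fit without centring of chromosome 11, *Rpl10l* (chromosome 12, 66283379 to 66284401, minus strand) had the log2 ratio nearest to 0 of the list. It had 3298, 3896 and 3231 normalized counts in WT and 3239, 3390 and 2965 in KO, with overlap, and a log2 ratio of -0.12 (SE 0.11, adjusted p 0.696, DESeq2), or -0.17 to -0.03 without 1 library. Its X-linked parent *Rpl10* was more abundant, with 45936 ± 5918 and 47558 ± 3553 normalized counts (log2 ratio 0.05, adjusted p 0.907). None of the 50-base windows of *Rpl10l* occurs unchanged in *Rpl10* and 0.103% do with at most 2 mismatches, while 7.60% occur unchanged in *Gm14460*, a gene that is not among the counted symbols.

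Levels were then compared between the genes per length, as normalized counts per kilobase of annotated exon. In WT, *Rpl10l* stood at 3397 ± 358 and *Tex19.1* at 2368 ± 193 (SD, n = 3), above 97.4% and 96.2% of the tested genes. *Dazl* (189 ± 17.6) and *Stk31* (182 ± 8.92) followed and overlapped each other, both above the median of 86.6 over all tested genes. *Slc25a31*, *Tex101* and *Aire* overlapped in turn at 24.6 ± 4.56, 23.6 ± 6.20 and 20.3 ± 7.68, and *Dpep3* (10.1 ± 4.35) and *Brdt* (5.68 ± 2.70) overlapped at the lower end.

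In KO this order was different. *Stk31* stood at 245 ± 15.6 per kilobase and *Dazl* at 118 ± 3.81, and their libraries did not overlap. The WT overlap of this pair depends on the length used, since over the longest transcript the WT mean of *Dazl* was 243 and that of *Stk31* 182 per kilobase. *Aire*, at 86.7 ± 5.27, moved from above 27.9% of the tested genes in WT to above 50.6% in KO. *Dpep3*, with a mean of 1.26 per kilobase (2.15 ± 2.72 normalized counts), was the lowest of the list.

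**Figure D5:**
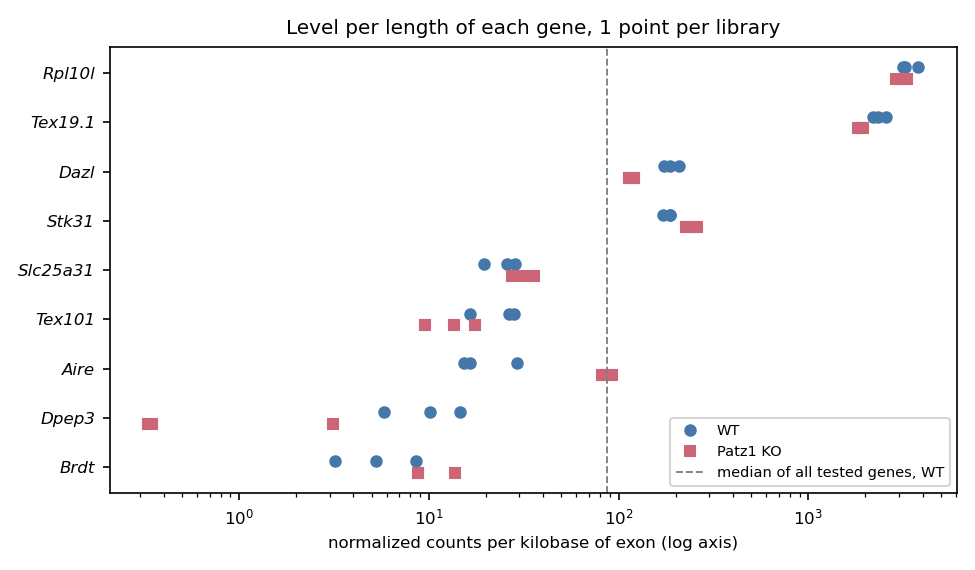
Normalized counts per kilobase of exon (x axis, log scale) for the 9 genes, with 1 point per library in WT (blue circles) and *Patz1* KO (red squares) and a dashed line at the WT median of all tested genes (86.6). *Rpl10l* and *Tex19.1* lie far to the right of the line in both genotypes, and *Aire* moves from left of the line in WT to the line in KO.

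Other genes of the germ line were compared in the same fit, in which 7.49% of all tested genes passed. Of 16 genes of spermatogonia and early germ cells, 14 had an adjusted p-value, 1 rose and 1 fell, with a median log2 ratio of 0.07. *Taf7l*, a germ cell paralog of a TFIID subunit, had 81.2, 94.6 and 123.2 normalized counts in WT and 167, 187 and 238 in KO (log2 ratio 1.01, SE 0.22, adjusted p 0.000303, DESeq2), with no overlap. It lies in the part of X beyond *Ogt*, where 92.7% of 177 genes had a higher KO level and the median log2 ratio was 0.44. *Tex14*, needed for the bridges between germ cells, had 669, 507 and 487 in WT and 337, 331 and 383 in KO (log2 ratio -0.69, SE 0.16, adjusted p 0.000556). It lies on chromosome 11, and with that chromosome centred it had a log2 ratio of -0.39 (adjusted p 0.106). With the replicate block 4 genes of this list passed, 3 of them higher.

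Of 22 genes of spermatocytes and spermatids, 10 had an adjusted p-value and 1 fell, and 10 of the 22 had at most 3 counts in every library. This was *Ldhc*, the germ cell lactate dehydrogenase, with 85.2, 45.2 and 63.0 normalized counts in WT and 30.5, 22.5 and 21.1 in KO (log2 ratio -1.35, SE 0.37, adjusted p 0.00685, DESeq2). *Ldhc* missed the threshold without WT replicate 1 or KO replicate 2 (adjusted p up to 0.255). The median log2 ratio of the 10 tested genes was -0.32, and 2 genes passed with the replicate block.

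The repressors of germline genes gave 1 call. Of the 14 PRC1.6 genes, 0 passed in DESeq2, edgeR or limma-voom, 2 had an unadjusted p under 0.05, and 2 passed with the replicate block, *E2f6* and *Cbx3*, both higher, and the median log2 ratio was 0.05. Of 12 genes of DNA and H3K9 methylation, 1 passed, the *Dnmt3l* named above, with a median of 0.02. With the replicate block 2 passed, *Dnmt3l*, which was higher, and *Uhrf1*, which was lower.

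Markers of other cell types were low or did not pass, with 1 exception. Of the 6 Sertoli cell markers, 4 had an adjusted p-value and 0 passed, with 0 at an unadjusted p under 0.05 (summed normalized counts of 219 to 339 in WT and 266 to 372 in KO), and of the 5 Leydig cell markers 2 had one and 0 passed, with 1 at an unadjusted p under 0.05 (270 to 438 and 275 to 373). Of the 6 fibroblast markers 5 had an adjusted p-value, and *Thy1* passed (72.5 ± 12.3 in WT and 130 ± 22.7 in KO, log2 ratio 0.83, adjusted p 0.0147, DESeq2), a call that was lost in 6 of 15 alternatives, 5 of them fits without 1 library (adjusted p up to 0.248). Nearly all of the fibroblast sum (4135 to 5052 in WT and 4130 to 4814 in KO) was *Vim*, which is not specific to fibroblasts, with means of 4524 and 4406, while *Col1a1* had 11.5 and 9.16. In the same way *Rhox5* (221 and 265) made most of the Sertoli sum and *Star* (302 and 272) most of the Leydig sum. Neither edgeR nor limma-voom called a Sertoli or Leydig cell marker. The part of other cells in the member results was not tested.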

How the data were processed

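RNA-seq libraries were stranded and depleted of ribosomal RNA. The authors deposited raw read counts per gene symbol, 1 file per library, with no normalization. The submitters' processing notes name TopHat2 (2.1.1), Bowtie2 (2.3.1.0), featureCounts (1.6.2), DESeq2 and the mm10 build. Annotation and strand setting are not given in the sources used here. Members and lists were chosen with earlier results of these data known.

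All 23420 symbols were fitted together with the Wald test of DESeq2 (1.42.0), the test of the study's methods, two-sided, with genotype as the only term, median-of-ratios size factors, default independent filtering (0.1) and Benjamini-Hochberg adjustment over all tested genes. Named genes are all 9 members, *Patz1*, fixed paralogs, neighbours that passed or adjoin *Aire*, and at most 5 genes per list that passed with a mean of at least 50. Neighbours of the other genes that passed, list genes called with the block and the markers that carry a summed level were named after their values were seen. A paralog named by this rule is not reported here. Positions and exon lengths come from GENCODE M21 (GRCm38, the build of mm10), found for 21777 symbols directly and 1247 through older symbols.

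Alternatives were edgeR (4.0.16, quasi-likelihood), limma-voom (limma 3.58.1), TMM size factors, a filter of 10 counts in 3 libraries, switching independent filtering off, a replicate block, leaving out libraries, and centring chromosome 11 in each library. The code was tested on simulated data. Same-numbered libraries deviated together from the mean of their genotype (correlations 0.469, 0.619 and 0.684 over 11524 genes). Replicate 3 stood apart in both genotypes, which can raise all 3 correlations, and those between unlike numbers were not computed. All 15 pairs of libraries differed beyond sampling noise, by a chi-square of at least 9.50 times its degrees of freedom. The lowest value was that of the replicate 3 pair. That of the replicate 2 pair was 29.4 and that of the replicate 1 pair 55.5. It was 46.3 between WT replicates 1 and 2 and 20.0 between KO replicates 1 and 2. Pairing by number is thus an assumption of the replicate block and of the pair values. Total counts were 11040756 to 47721070 per library.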

Additional observations from a re-analysis of the deposited data

How the results depend on the processing

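Of 134 member values over 15 alternatives, 121 kept their direction and their side of the threshold, 13 kept the direction and no longer passed, and 0 changed sign. The 13 belong to *Tex19.1* (8), *Dpep3* (3) and *Stk31* (2), and the values are given beside these genes except that of *Tex19.1* with chromosome 11 centred and the replicate block, -0.03 (adjusted p 0.850). *Dpep3* has no value under the count filter, which removes it. The replicate block changed no member call. The number of members that passed was 2 to 5 without 1 library, with 2 without KO replicate 1, 3 when replicate 1 or 2 of WT or replicate 2 of KO was absent, and 4 or 5 otherwise. With all 6 libraries it was 4 (2 higher, 2 lower) in edgeR, under the count filter, and with chromosome 11 centred with or without the block. It was 4 without *Dpep3*, an alternative chosen after the data were seen. Over all genes 1146 passed, and 2131 with the replicate block (973 higher, 1158 lower), 1752 with chromosome 11 centred and the block (1020 higher, 732 lower), 926 with chromosome 11 centred alone (418 higher, 508 lower), and 583 to 1341 without 1 library. The lists of related genes held 4 calls together, and 11 with the block and 10 with centring and the block, and 3 to 5 without 1 library. The cause was not tested. Levels per kilobase taken over the longest transcript moved by more than the SD for 6 of 18 values, and GGGGNGGGG was present for 0 members in the 150-base window. Depth limits *Dpep3*, *Tex101*, *Brdt* and *Slc25a31*, which hold 2 to 29 counts in replicate 3 of either genotype. It also limits the WT level of *Aire*, which had 23 counts in WT replicate 3 and 118 in KO replicate 3.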
